A study of Mus musculus with 3 samples.

Results

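The genes described here encode the steps that take glucose from the cell surface to pyruvate, and then to lactate or into the mitochondrion. They were chosen by symbol, as a list of 40 genes plus the muscle-type pyruvate kinase gene, which the counts hold under its older symbol Pkm2. The choice was made with earlier results of these data known, so shares set beside the background of all genes are description only. All 41 were found among the 23337 genes counted, and they fall into 18 groups in pathway order, with the side branches last. RNA was sequenced from mouse heart tubes at embryonic day 9.5, in 2 libraries from embryos labelled Sox7 -/- (null) and 1 from wild-type embryos. Sox7 encodes an endothelial transcription factor, and the series asks which heart tube transcripts differ when it is missing. The labels give no strain, no sex and no age beyond the embryonic day, and they do not say whether a tube is 1 heart or a pool. The p-values therefore rest on how far the 2 null libraries differ from each other, possibly for technical reasons only, and the lone wild-type library is assumed to vary as they do.

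Glycolysis splits glucose into pyruvate through a chain of cytosolic enzymes, most of which exist as several isozymes encoded by separate genes. Lactate dehydrogenase turns pyruvate into lactate, which monocarboxylate transporters carry out of the cell, whereas the pyruvate dehydrogenase complex feeds it into the mitochondrion. Pyruvate dehydrogenase kinases switch that complex off. The early embryonic heart is known to draw much of its energy from glucose, and transcription factors that sense low oxygen are known to act on many genes of this chain.

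Gene counts totalled 13139823 for Sox7-null 1, 13618338 for Sox7-null 2 and 13789388 for the wild type. Sox7 itself had 2 and 7 reads in the null libraries versus 222 in wild type (log2 fold change -5.63 ± 0.47, SE; edgeR adjusted p = 3.81e-05). The wild-type library differed from both others in further respects. Of its reads 22.3% were not uniquely aligned, against 10.4% and 11.6%, and 11.7% fell in no counted gene, against 8.10% and 8.52%. The ribosomal RNA gene Rn45s took 2.08% of its gene reads, against 0.654% and 0.926%. The part of these differences in the results below was not tested. The extraction protocol in the labels speaks of retinal cultures, but the 8 retina markers summed to 0.593 CPM for Sox7-null 1, 0.218 for Sox7-null 2 and 0.528 for the wild type, with Crx, Rcvrn and Six6 among those at 0 reads in each. Where 3 values follow each other below, they are in this order of libraries. The 12 cardiomyocyte markers summed to 32074, 29920 and 22558 CPM. Of them 6 rose and 0 fell, where 11.3% of all genes tested rose and 10.2% fell. CPM express reads relative to the effective size of the library they come from. In whole heart tubes, more cells of a type and more RNA per cell cannot be told apart.

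Transcripts of the pathway took 4.44% of all gene reads in Sox7-null 1 and 3.995% in Sox7-null 2, against 2.16% in the wild type (95% exact binomial intervals of 4.43 to 4.46, 3.98 to 4.01 and 2.15 to 2.17, for counting error only). Of the 41 genes, 40 passed the filter on low counts. At an edgeR adjusted p under 0.05, 24 of the 40 rose and 0 fell, where the background over all 13334 genes tested was 11.3% higher and 10.2% lower, or 21.6% in either direction. Without adjustment 26 were higher and 2 lower at an edgeR p under 0.05, against 2440 and 2272 of all 13334 genes tested. DESeq2 called 21 higher and 0 lower, against 941 and 721 of all genes. With no filter on low counts, edgeR called 0 of 17242 genes in the whole table. At an unadjusted p under 0.05, 23 pathway genes were then higher and 2 lower, against 2147 and 1966 of all genes. The median log2 fold change of the 40 was 0.85, against 0.014 for all genes tested. Both null libraries lay above the wild type for 31 of the 40 (background 43.1%) and both lay below it for 3 (background 43%). A rise of at least 1 on the log2 scale was called for 17 (background 6.73%). Among the 24 called genes, 21 differed more from the wild type in Sox7-null 1 than in Sox7-null 2. The share of all called genes that did so was not computed. Over the whole table, the chi-square per degree of freedom against the wild type was 117 for Sox7-null 1 and 70.6 for Sox7-null 2.

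**Figure D1:**
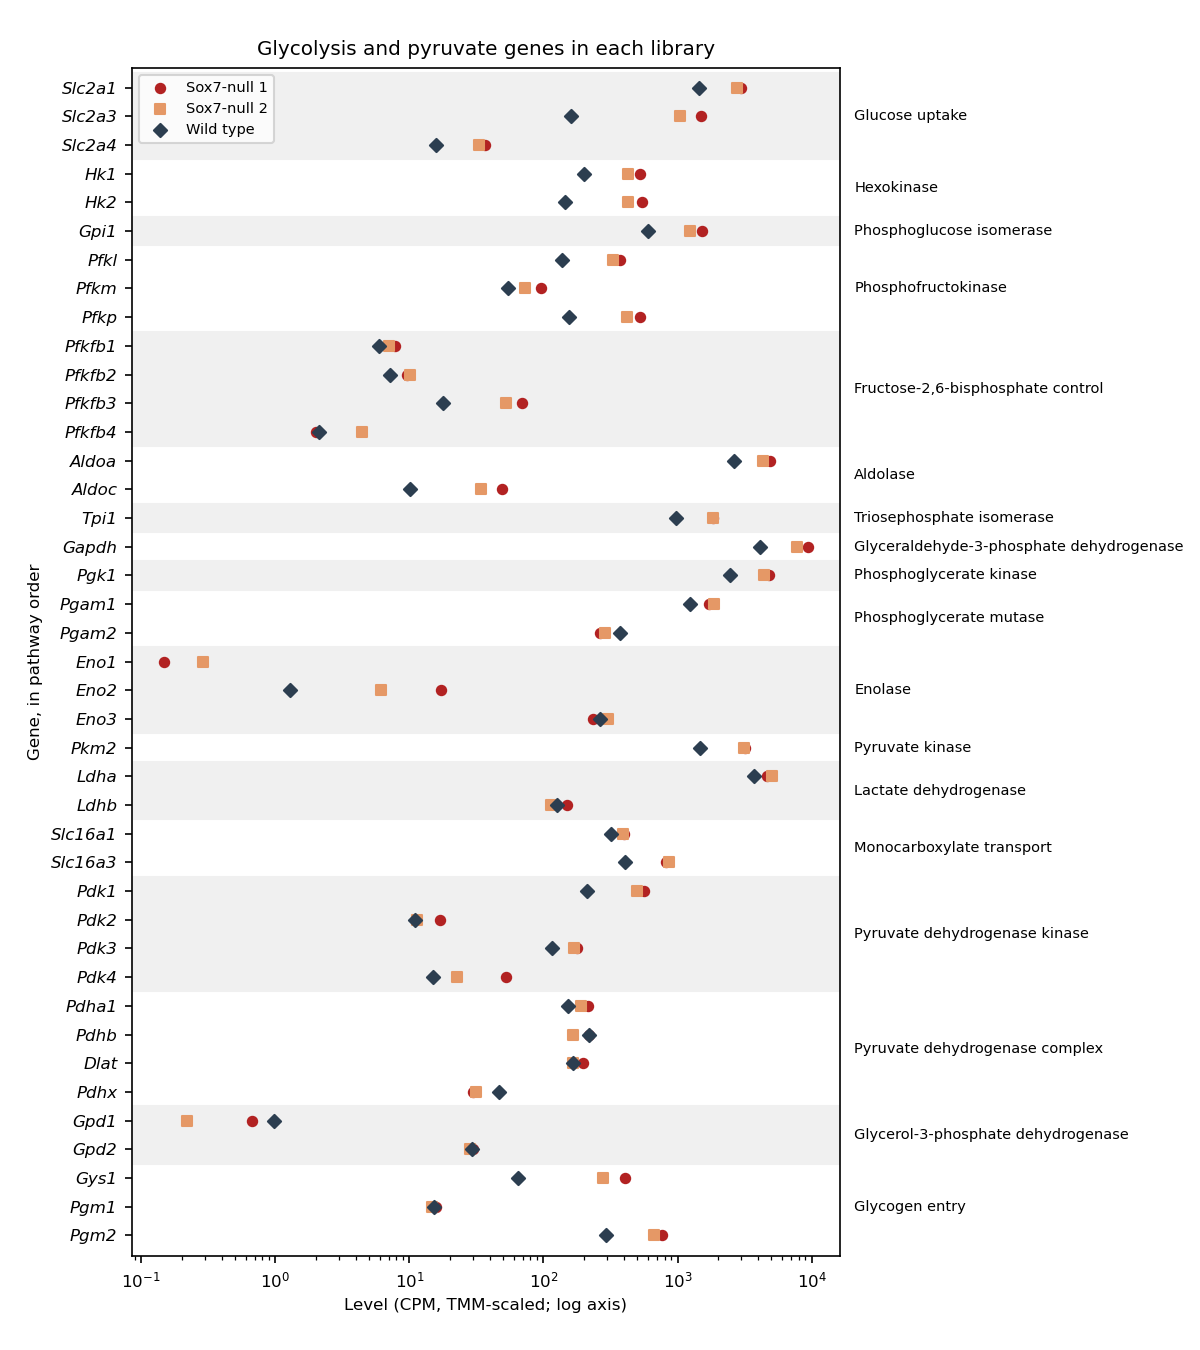
Level of each of the 41 genes (CPM, log axis) in the 3 libraries, with genes in pathway order and shaded bands for the steps. The wild-type diamond lies left of both null symbols for 31 of the 40 genes tested, and Eno1 has no wild-type symbol because it had 0 reads there.

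Calls were counted for the steps down to pyruvate kinase and for the remaining groups. All 12 steps from glucose uptake to pyruvate kinase had at least 1 gene that rose, and 17 of the 23 genes tested in them did (background 11.3% higher). The enolase step counts only through the scarce Eno2, with 232, 84 and 17 reads, because Eno1 could not be measured and Eno3 did not pass the test. In the remaining groups 7 of the 17 genes tested rose. These groups hold the lactate and pyruvate steps, but also the glycogen and glycerol phosphate branches, which leave the chain before pyruvate kinase. Of the 7, 3 were pyruvate dehydrogenase kinases, of which Pdk3 and Pdk4 did not pass with DESeq2. The glycogen branch gave 2 more, Gys1 and Pgm2. Of the 4 member genes of the pyruvate dehydrogenase complex 0 rose, which for so few genes is near the background of 11.3% higher. Whether the steps down to pyruvate kinase differ from the remaining groups was not tested.

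**Figure D2:**
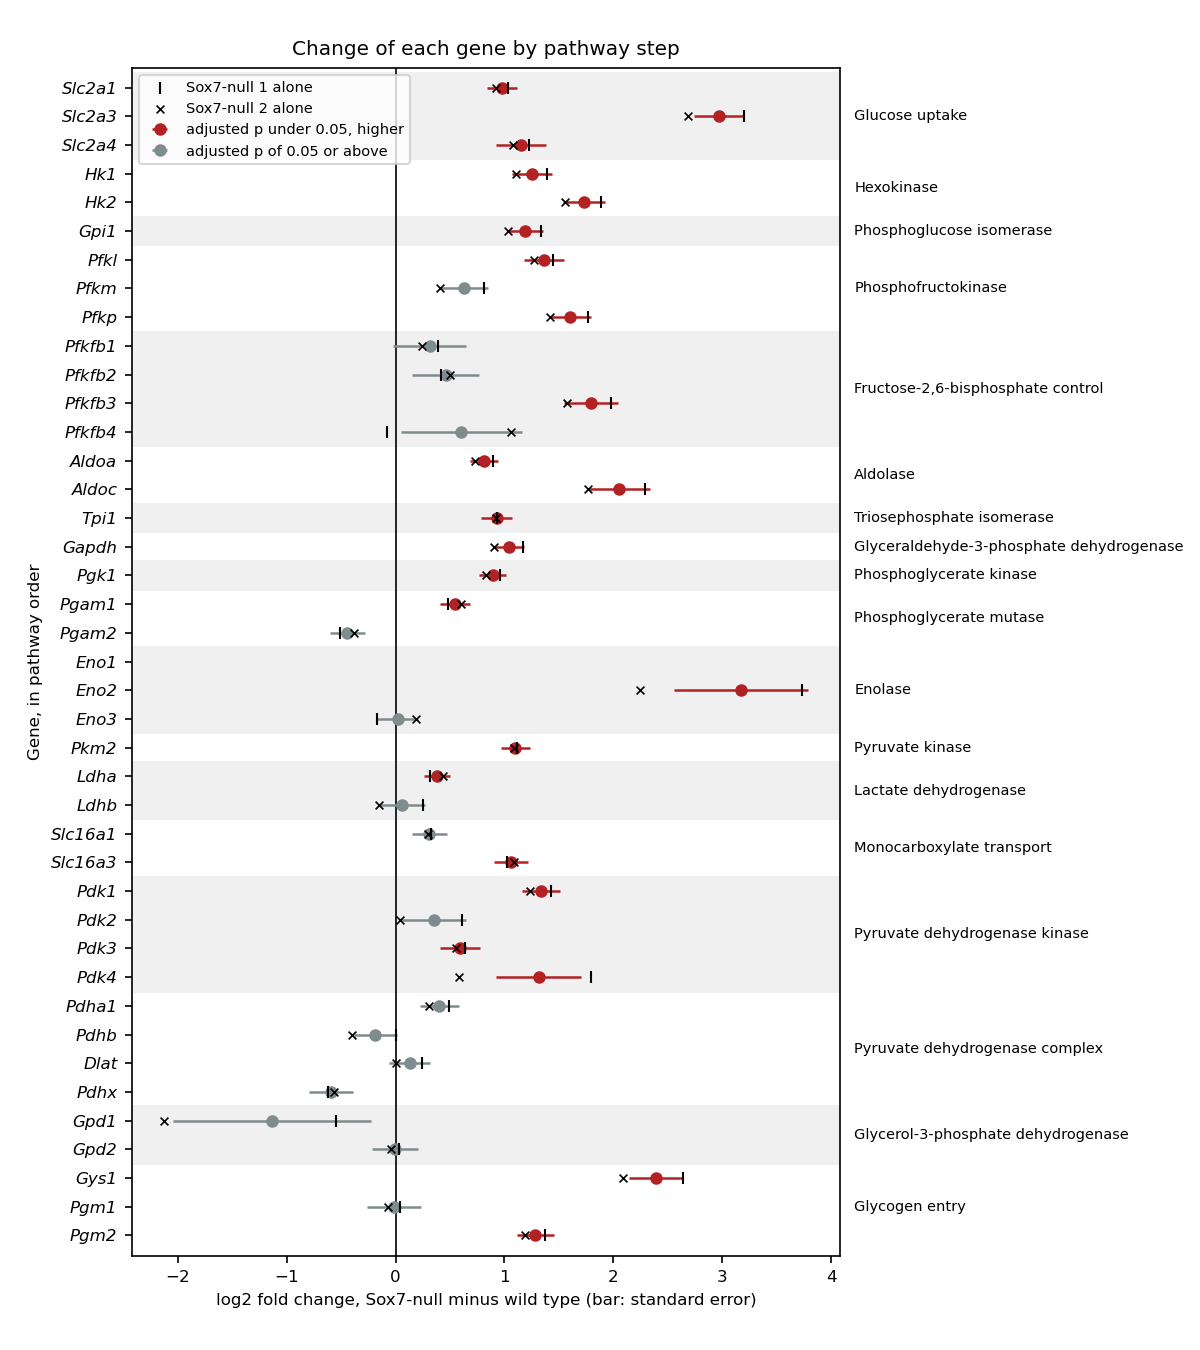
Log2 fold change of each tested gene, Sox7-null minus wild type, from the edgeR fit, with bars for 1 standard error. Red points passed an adjusted p under 0.05 and the small marks give each null library alone against the wild type. Every step down to pyruvate kinase has a red point, at enolase only that of the scarce Eno2. The genes shown of the pyruvate dehydrogenase complex lie between -0.59 and 0.40.

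The DNA just before the start site is shown for 5 of the genes, and whether it bears on the changes was not tested. The short words ACGTG and GCGTG hold the core letters that hypoxia-inducible factors bind. They were searched on both strands (also as CACGT and CACGC) in the 250 bases before each RefSeq start of build GRCm38.p6. A CACGTG gives 2 overlapping matches to ACGTG, 1 on each strand. Ldha is shown for having the most matches, Pgk1 and Hk2 as genes that rose and hold 2 matches each, Gys1 as the gene with the largest rise among those with a promoter sequence and over 100 CPM in the null libraries, and Pgam2 as a gene with lower values in both null libraries. Capitals mark the matches. The windows are chr6:82774455-82774704 (minus strand) for Hk2, chrX:106186850-106187099 (plus) for Pgk1, chr11:5803797-5804046 (minus) for Pgam2, chr7:46845554-46845803 (plus, the upstream of 2 starts) for Ldha and chr7:45434589-45434838 (plus) for Gys1.
Hk2: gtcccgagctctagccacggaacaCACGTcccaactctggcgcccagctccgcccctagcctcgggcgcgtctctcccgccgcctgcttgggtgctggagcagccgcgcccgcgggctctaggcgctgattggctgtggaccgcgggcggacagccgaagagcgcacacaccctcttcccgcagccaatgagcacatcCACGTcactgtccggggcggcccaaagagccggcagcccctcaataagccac
Pgk1: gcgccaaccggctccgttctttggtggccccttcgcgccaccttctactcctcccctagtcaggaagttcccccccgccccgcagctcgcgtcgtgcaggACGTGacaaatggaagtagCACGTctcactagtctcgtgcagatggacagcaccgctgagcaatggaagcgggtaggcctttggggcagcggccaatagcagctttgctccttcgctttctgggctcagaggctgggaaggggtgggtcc
Ldha: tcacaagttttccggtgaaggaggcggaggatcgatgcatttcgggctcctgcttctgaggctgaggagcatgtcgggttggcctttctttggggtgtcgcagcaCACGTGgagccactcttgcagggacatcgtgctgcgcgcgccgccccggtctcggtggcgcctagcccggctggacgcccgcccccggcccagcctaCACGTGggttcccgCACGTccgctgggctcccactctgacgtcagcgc
Gys1: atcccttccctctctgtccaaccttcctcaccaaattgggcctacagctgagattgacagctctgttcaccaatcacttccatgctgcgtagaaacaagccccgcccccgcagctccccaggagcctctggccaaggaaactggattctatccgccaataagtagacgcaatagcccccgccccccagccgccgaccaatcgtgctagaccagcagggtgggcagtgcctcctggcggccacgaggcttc
Pgam2: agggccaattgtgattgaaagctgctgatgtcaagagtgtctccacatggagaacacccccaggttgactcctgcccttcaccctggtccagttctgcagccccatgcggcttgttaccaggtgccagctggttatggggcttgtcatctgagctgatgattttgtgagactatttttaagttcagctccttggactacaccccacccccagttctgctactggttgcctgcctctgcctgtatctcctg

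The Ldha window held 5 matches, from 2 copies of CACGTG and 1 single CACGT. Those of Pgk1 and Hk2 held 2 each, and those of Gys1 and Pgam2 held 0. Of the 41 genes, 36 could be matched to a promoter by symbol, with 56 starts in all. At least 1 of these words stood in 71.4% of the 56 windows, against 38.6% of all 32851 windows of the same length. The windows of these genes were also richer in G and C, with a median of 60.2% against 52.4%, and both words contain mostly those bases. Among starts of genes that rose 72.4% held a word, and among starts of tested genes that did not pass the test 66.7% did. Gpi1, Tpi1 and Eno2 rose and, like Gys1, had 0 matches at their start. A match is a description of letters and not of a bound site.

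Glucose enters the cell through the Slc2a transporters, and all 3 that are members rose. Slc2a1, the widely expressed basal transporter, stood at 2977 and 2756 CPM against 1454 (log2 fold change 0.98 ± 0.13, edgeR adjusted p = 0.000706). Slc2a3, a transporter of high affinity, stood at 1486 and 1043 CPM against 162 (2.97 ± 0.22, edgeR adjusted p = 1.67e-05). This was a 7.83-fold higher level, and both null libraries were far above the wild type. The insulin-regulated transporter Slc2a4 was scarce in all libraries, with 496, 459 and 209 reads (1.15 ± 0.23, edgeR adjusted p = 0.00453). The make-up of the uptake step moved with these changes. Per kilobase of transcript, Slc2a3 held 28.8% and 23.5% of the transporter reads in the null libraries versus 8.27% in wild type. Slc2a1 remained the most abundant of the 3 in each library, with 913, 845 and 446 CPM per kilobase.

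Hexokinase traps glucose by phosphorylating it. Hk1, the isozyme of most tissues, had 525 and 429 CPM in the null libraries versus 200 in wild type (1.26 ± 0.18, edgeR adjusted p = 0.00100). Hk2, the isozyme of insulin-sensitive and fast-growing tissue, had 540 and 427 CPM against 146 (1.73 ± 0.20, edgeR adjusted p = 0.000238). Hk2 held 44.4% and 43.6% of hexokinase reads per kilobase in the null libraries versus 36.2% in wild type. The phosphoglucose isomerase gene Gpi1 followed with 1524, 1236 and 604 CPM (1.19 ± 0.17, edgeR adjusted p = 0.000784).

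Phosphofructokinase commits the sugar to glycolysis and is built from 3 kinds of subunit. The liver-type gene Pfkl had 373 and 331 CPM in the null libraries versus 137 in wild type (1.36 ± 0.18, edgeR adjusted p = 0.000555). The platelet-type gene Pfkp had 529 and 417 against 156 (1.60 ± 0.19, edgeR adjusted p = 0.000340). Muscle-type Pfkm, with 95.7, 72.2 and 54.4 CPM, did not pass the test (0.63 ± 0.22, edgeR adjusted p = 0.0619), though it did with upper-quartile scaling (edgeR adjusted p = 0.0494). In reads per kilobase Pfkm held 12.7% and 11.7% of the step in the null libraries versus 20.3% in wild type. The platelet markers rose in the same libraries: 9 of 9 did (background 11.3% higher), and their sum was 390 and 241 CPM against 64.4. Their part in the rise of Pfkp was not tested.

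The Pfkfb enzymes make and remove the sugar bisphosphate that activates phosphofructokinase. Pfkfb3, the form with the strongest kinase activity, rose from 235 reads in the wild type to 941 and 730 in the null libraries (1.79 ± 0.25, edgeR adjusted p = 0.000713). The other 3 genes were low and none passed. Pfkfb1 had 105, 97 and 79 reads, Pfkfb2 had 129, 140 and 95, and Pfkfb4 had 27, 61 and 28. For Pfkfb4 the 2 null libraries disagreed in direction, at -0.08 and 1.06 on the log2 scale. Pfkfb3 took 67.8% and 60.1% of the reads per kilobase of this group in the null libraries versus 40.6% in wild type.

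**Figure D3:**
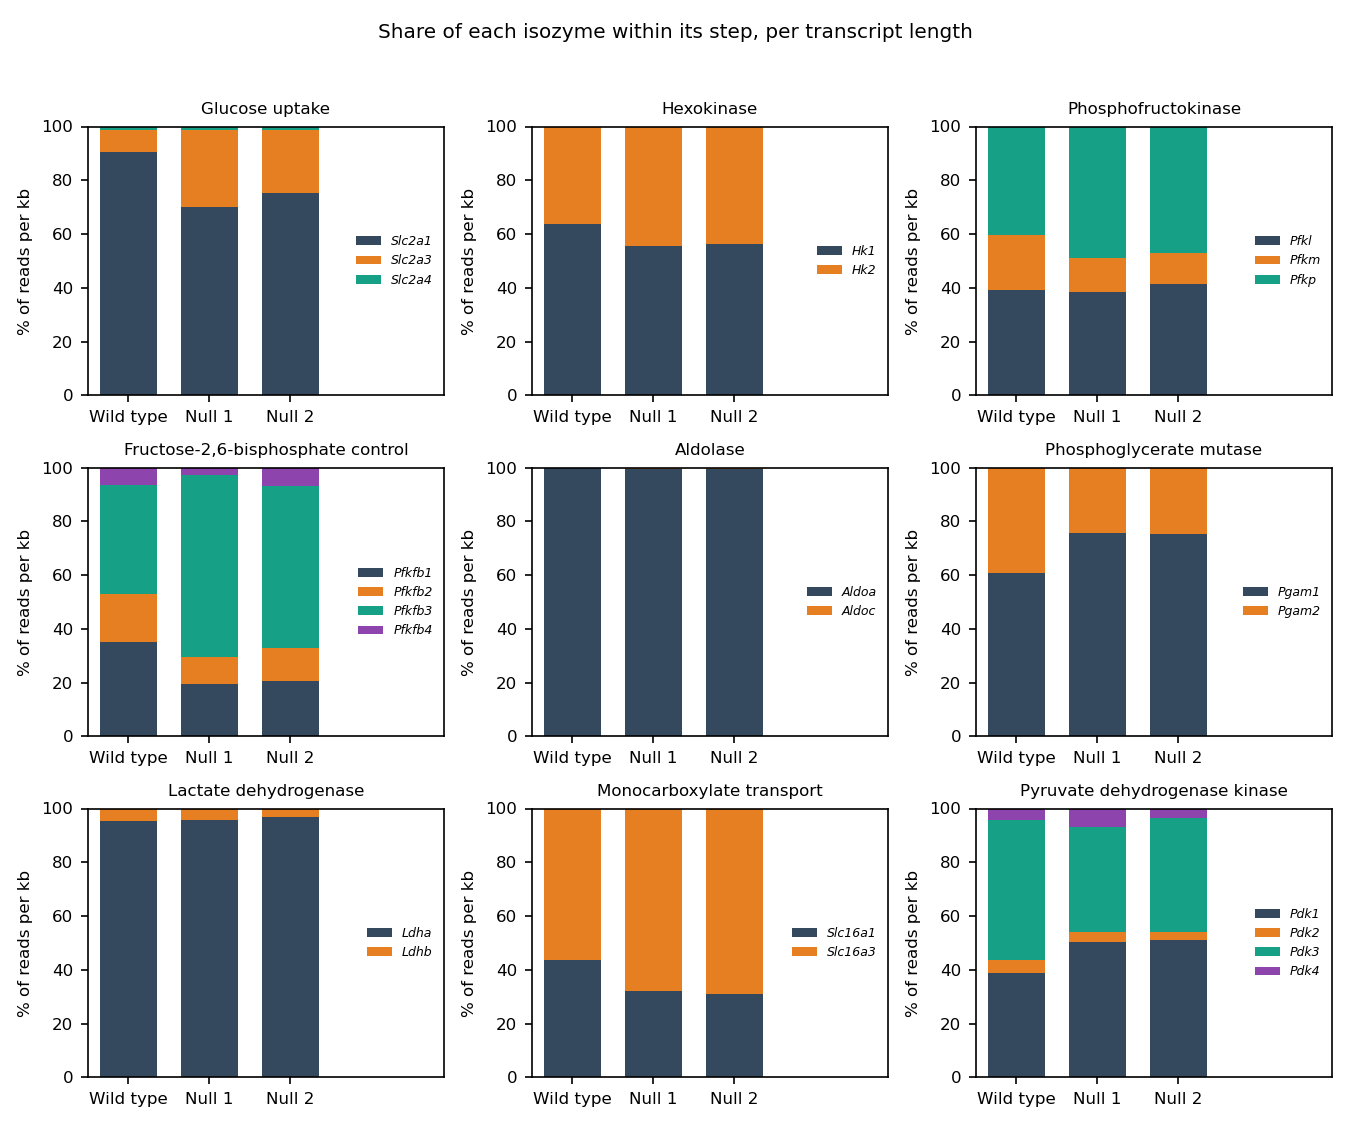
Share of each isozyme gene in the reads per kilobase of its step, as stacked bars for the wild-type and the 2 null libraries; enolase is left out because Eno1 could not be measured. The Slc2a3, Pfkfb3, Pgam1, Slc16a3 and Pdk1 shares are larger in both null bars than in the wild-type bar, while lactate dehydrogenase is almost all Ldha in each.

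Aldolase cleaves the bisphosphate sugar. Aldoa, the muscle and embryonic form, was among the most abundant transcripts of the pathway, with 4885 and 4355 CPM in the null libraries versus 2626 in wild type (0.81 ± 0.13, edgeR adjusted p = 0.00136). Aldoc, the brain form, had 664, 471 and 133 reads (2.06 ± 0.28, edgeR adjusted p = 0.000693). Aldoc rose by the larger factor but held at most 0.557% of aldolase reads per kilobase in any library.

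The triose steps each rest on 1 main gene, and these rose by 0.89 to 1.05 on the log2 scale. Tpi1, triosephosphate isomerase, had 1849, 1831 and 967 CPM (0.93 ± 0.14, edgeR adjusted p = 0.00114). Gapdh, which makes the step's NADH, had 9374, 7762 and 4150 CPM (1.05 ± 0.13, edgeR adjusted p = 0.000396). Gapdh is often used as a constant reference in expression work, and here its level in the null libraries was 2.06-fold that of the wild type. Pgk1, which makes the first ATP of the pathway, had 4797, 4388 and 2473 CPM (0.89 ± 0.13, edgeR adjusted p = 0.000812).

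Several of these genes have close copies elsewhere in the genome, so the placement of their reads is uncertain. Of all 50-base words in the longest annotated transcript, 82.5% of those of Gapdh, 68.0% of those of Pgk1 and 41.5% of those of Pgam1 also occur in transcripts of other genes. For Pkm2 the share was 34.4%, for Gpi1 25.3% and for Ldha 16.6%. It was 0% for Slc2a3, Hk2 and Pdk1, which rose as well, and 1.7% for Slc2a1.

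Phosphoglycerate mutase showed its 2 isozymes apart. Pgam1, the form of most tissues, rose, with 1722, 1868 and 1231 CPM (0.54 ± 0.14, edgeR adjusted p = 0.0157). Pgam2, the muscle form, had 263 and 288 CPM in the null libraries versus 374 in wild type, and did not pass the test (-0.44 ± 0.16, edgeR adjusted p = 0.0701). Both null libraries lay below the wild type for Pgam2, and its share of mutase reads per kilobase was 24.4% and 24.6% against 39.1%. The log2 fold change of Pgam2 was -0.069 after removal of the length and GC trend (edgeR adjusted p = 0.819).

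Enolase could be measured only in part. Eno1, the form of most tissues, had 2 and 4 reads in the null libraries versus 0 in wild type, was left out by the filter and gives no fold. Of its 50-base words 70.5% are shared with Eno1b, an annotated retrogene copy, which the counts list as Gm5506 with 427, 535 and 223 reads. Where the reads of Eno1 were placed was not tested. Neuronal Eno2 was scarce, with 232, 84 and 17 reads, and rose (3.17 ± 0.61, edgeR adjusted p = 0.00384), more in Sox7-null 1 (3.74) than in Sox7-null 2 (2.24). Muscle-type Eno3 had 235, 301 and 264 CPM, so the wild type lay between the null libraries (0.02 ± 0.19, edgeR adjusted p = 0.949).

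Pyruvate kinase closes the chain. Pkm2, whose counts cover both splice forms of the gene, had 3214 and 3149 CPM in the null libraries versus 1482 in wild type (1.10 ± 0.13, edgeR adjusted p = 0.000325). Sox7-null 1 and Sox7-null 2 alone stood 1.12 and 1.09 above the wild type on the log2 scale.

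At the lactate branch Ldha and Slc16a3 rose, while Ldhb and Slc16a1 did not pass the test. Ldha, which favours lactate formation, had 4661 and 5052 CPM in the null libraries versus 3734 in wild type, so both lay above it. Its log2 fold change was 0.38 ± 0.12 (edgeR adjusted p = 0.0393), and it did not pass with DESeq2 (adjusted p = 0.215), with the length and GC trend removed (edgeR adjusted p = 0.0939) or with a filter of 10 reads over the 3 libraries. Ldhb had 151, 114 and 127 CPM, with the wild type between the null libraries (0.06 ± 0.21, edgeR adjusted p = 0.859). Ldha made up 95.7%, 97.0% and 95.5% of the dehydrogenase reads per kilobase. The exporter Slc16a3, which is suited to lactate release, rose from 403 CPM to 822 and 857 (1.06 ± 0.16, edgeR adjusted p = 0.00108), and by 0.69 with the length and GC trend removed (edgeR adjusted p = 0.0268). Slc16a1, which carries lactate both ways, had 399, 390 and 318 CPM and did not pass (0.31 ± 0.16, edgeR adjusted p = 0.188). Slc16a3 held 67.8% and 69.2% of the reads per kilobase of this pair in the null libraries versus 56.4% in wild type.

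The gate to the mitochondrion showed higher kinase transcripts beside a complex with no called change. Pdk1 had 566 and 497 CPM in the null libraries versus 211 in wild type (1.34 ± 0.17, edgeR adjusted p = 0.000508). Pdk3 had 179, 168 and 115 CPM (0.60 ± 0.18, edgeR adjusted p = 0.0351). Pdk4, the form induced by fasting, had 707, 312 and 200 reads, and its rise differed between Sox7-null 1 (1.80) and Sox7-null 2 (0.59). The fit gave Pdk4 1.31 ± 0.39 (edgeR adjusted p = 0.0300), but it did not pass with DESeq2 (adjusted p = 0.437), limma-voom (adjusted p = 0.0703) or a minimum mean of 5 CPM (edgeR adjusted p = 0.0703), and Pdk3 did not with DESeq2 (adjusted p = 0.0576). Neither passed with the filter of 10 reads over the 3 libraries. Pdk2 had 228, 157 and 147 reads and did not pass (edgeR adjusted p = 0.434).

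Of the complex itself, the members are the E1 subunits Pdha1 and Pdhb, the E2 core Dlat and its binding protein Pdhx. Dld, a further gene of the complex, was not a member. It had 223, 202 and 263 CPM and did not pass (-0.31 ± 0.17, edgeR adjusted p = 0.221). Pdha1 had 215, 190 and 153 CPM (0.40 ± 0.18, edgeR adjusted p = 0.133) and Dlat had 196, 166 and 165 (0.13 ± 0.18, edgeR adjusted p = 0.658). Pdhb had 218, 165 and 218 CPM (-0.18 ± 0.20), and its sign turned with the length and GC trend removed (0.25). Pdhx, with 30.03 and 31.3 CPM against 46.3, had the lowest value of the 4 (-0.59 ± 0.20, edgeR adjusted p = 0.0544) and of the settings run it passed with DESeq2's size factors alone (edgeR adjusted p = 0.0488). The ratio of Pdk1 to Pdha1 in reads per kilobase was 1.45 and 1.44 in the null libraries versus 0.754 in wild type.

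The side branches of the chain moved unequally. Gys1, the muscle-type glycogen synthase, had 5468 and 3813 reads in the null libraries versus 864 in wild type, a 5.24-fold higher level (2.39 ± 0.24, edgeR adjusted p = 0.000123). The phosphoglucomutases join glycogen to glycolysis, and each of the symbols Pgm1 and Pgm2 is an older symbol of the other gene, so the counts cannot be assigned to 1 or the other gene here. The row listed as Pgm2 had 10286, 9275 and 3906 reads and rose (1.29 ± 0.17, edgeR adjusted p = 0.000513), while the row listed as Pgm1 had 214, 202 and 204 (-0.01 ± 0.25). Glycerol phosphate dehydrogenases link a triose of the chain to glycerol phosphate. The mitochondrial form Gpd2 had 403, 392 and 388 reads, with a log2 fold change near 0, and the cytosolic form Gpd1 had 9, 3 and 13 reads, too few for a direction (-1.14 ± 0.91, edgeR adjusted p = 0.403).

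The wider metabolism of glucose was covered by 83 further genes in 7 lists, all found in the files, 3 of them under older symbols. Of 63 tested, 13 rose and 4 fell (background 11.3% and 10.2%), with a median log2 fold change of 0.15. Of the other isozymes of the same steps 0 of 12 passed in either direction (background 21.6%), among them Adpgk, an ADP-dependent glucokinase, and the transporters Slc2a8 and Slc2a12. Bpgm and Pklr, the red cell enzymes of that list, had 267, 554 and 729 reads and 61, 300 and 232 reads. Both were lowest in Sox7-null 1, as was the sum of the 10 primitive erythroid markers, at 4546 CPM against 14469 for Sox7-null 2 and 14027 for the wild type. Hba-a1 and Hba-a2 of those markers had 0 reads in each library.

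Around pyruvate, 2 of 9 tested genes rose and 2 fell (background 11.3% higher and 10.2% lower), with a median of -0.27. Bsg, the membrane chaperone of the monocarboxylate transporters, had 1936 and 1606 CPM in the null libraries versus 775 in wild type (1.19 ± 0.16, edgeR adjusted p = 0.000570). Pcx, pyruvate carboxylase, rose as well (1.33 ± 0.25, edgeR adjusted p = 0.00361). Mpc2, a subunit of the mitochondrial pyruvate carrier that the counts list as Brp44, fell. It had 51.5 and 53.2 CPM in the null libraries versus 109.5 in wild type, and its log2 fold change was -1.06 ± 0.19 (edgeR adjusted p = 0.00236), or -0.67 with the length and GC trend removed (edgeR adjusted p = 0.0240). Its partner Mpc1, listed as Brp44l, had 42.8, 37.9 and 58.6 CPM and did not pass (-0.54 ± 0.20, edgeR adjusted p = 0.0734). Emb, a further transporter chaperone, fell too (-0.69 ± 0.20, edgeR adjusted p = 0.0256), though not with DESeq2 (adjusted p = 0.0761) or with the length and GC trend removed (edgeR adjusted p = 0.0695).

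Among 16 tested genes of glycogen synthesis and breakdown 7 rose and 0 fell (background 11.3% higher and 10.2% lower), with a median of 0.35. The liver phosphorylase Pygl rose by 1.45 ± 0.21, with 210 and 167 CPM against 69.0. Ppp1r3c, a subunit that targets a phosphatase to glycogen, rose by 1.47 ± 0.22, with 292 and 211 CPM against 91.0, and lysosomal Gaa rose by 1.42 ± 0.26. Genes for synthesis and for breakdown were thus both among those that rose. Of the 7, Gbe1, Phka2 and Ppp1r3b did not pass with DESeq2 (adjusted p = 0.294, 0.186 and 0.134). The log2 fold change of Gbe1 was 1.43, and 0.82 without Sox7-null 1. Of 4 tested genes of gluconeogenesis 2 rose and 0 fell, beside the same background. These were mitochondrial Pck2, with 1264, 787 and 172 reads (2.54 ± 0.31, edgeR adjusted p = 0.000340), and the glucose phosphate transporter Slc37a4 (1.47 ± 0.25).

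The pentose phosphate pathway, which branches off just after hexokinase, had 1 of 8 higher and 0 lower, a share near the background of 11.3% higher, and its median was -0.21. The gene that rose was H6pd, an enzyme of the endoplasmic reticulum, with 34.8 and 24.0 CPM against 11.7 (1.33 ± 0.28, edgeR adjusted p = 0.00554). Of 6 hexosamine and polyol genes 0 rose and 1 fell, Gnpnat1 (-0.61 ± 0.20, edgeR adjusted p = 0.0452), and it did not pass with DESeq2 (adjusted p = 0.137) or with the length and GC trend removed (edgeR adjusted p = 0.280). In the shuttles that carry NADH electrons into mitochondria 1 of 8 rose, Got2 (0.57 ± 0.17), and 1 fell, Gpd1l (-0.68 ± 0.21), but neither passed with DESeq2 (adjusted p = 0.0581 and adjusted p = 0.134). The hexosamine and shuttle counts were near the background of 11.3% higher and 10.2% lower.

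**Figure D4:**
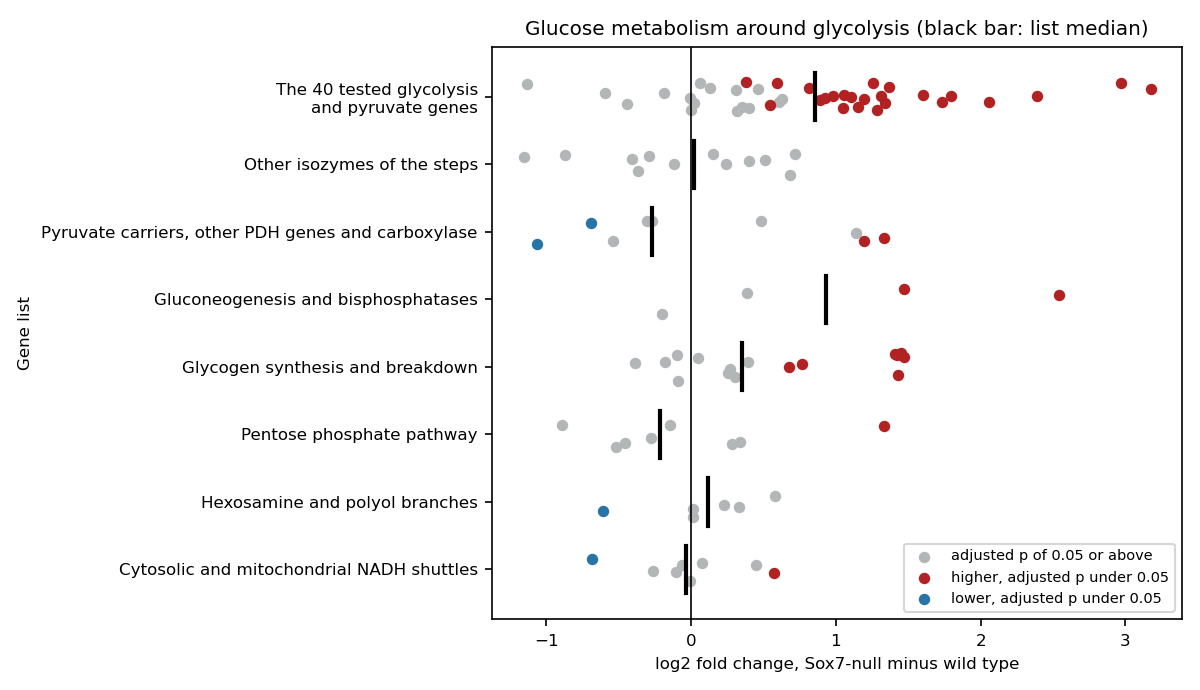
Log2 fold change of each tested gene, Sox7-null minus wild type, for the 40 pathway genes and for the 7 lists around them, with black bars for list medians and colours for genes that passed an adjusted p under 0.05. The pathway genes have a median of 0.85. The medians of the lists range from -0.27 for the genes around pyruvate to 0.93 for the 4 genes of gluconeogenesis.

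Other markers that differed between the libraries are given for the reading of these values, beside a background of 11.3% higher and 10.2% lower. The sums of 10 endothelial markers were 534, 526 and 522 CPM, but single markers changed in both directions: Pecam1 (1.07) and Tie1 (0.83) rose, and Tek (-0.91) and Npr3 (-0.62) fell. The 7 epicardial markers summed to 1032, 821 and 245 CPM, of which Krt19 alone held 791, 668 and 80.9. The other 6 summed to 241, 153 and 164 CPM, and of the 6 tested only Krt19 and Wt1 rose. The 7 macrophage markers summed to 47.4, 21.5 and 11.98 CPM, and 3 of the 6 tested rose, namely Laptm5, Fcer1g and Coro1a. The others tested, Csf1r, Cx3cr1 and Tyrobp, lay above the wild type in Sox7-null 1. In Sox7-null 2 they lay below it (-0.27, -0.82 and -0.62 on the log2 scale). The 8 neural tube markers, of which Sox1 and Neurog2 had 0 reads, summed to 221, 211 and 123 CPM, and Nes alone held 185, 193 and 106 of these. The other 7 summed to 36.0, 18.6 and 17.6 CPM, and of the 4 tested only Nes and Sox3 rose. The 10 foregut and liver bud markers summed to 2.45, 2.61 and 48.8 CPM, and 7 of the 8 tested fell. The part of these cell types in the changes above was not tested.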

How the data were processed

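The labels' protocols name Trizol extraction and a stranded kit for total RNA. The authors deposited a file of raw read counts for each library, with 1 whole number a gene symbol. The tools in the submitters' processing notes are CASAVA, TopHat2, HTSeq and DESeq2 1.10.1, and the builds named there are human (hg19, GRCh37), although the symbols are those of mouse. No annotation and no strand setting for the counting is given in the sources used here, so overlapping or antisense genes cannot be told apart. The 5 summary lines per file were left out. Gene read totals were similar between libraries, while all reads, with the summary lines, came to 16590715, 17540851 and 21523795. Every pair of libraries differed by more than sampling noise (chi-square per degree of freedom of 19.6 or more).

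Counts were tested with edgeR 4.0.16 (quasi-likelihood, R 4.3.3), with TMM factors of 1.03, 1.01 and 0.962. The filterByExpr filter (minimum count 10) left out 10003 genes. Genotype was the only term, with 1 residual and 11.8 prior degrees of freedom, and p-values were adjusted by Benjamini-Hochberg over all genes. A standard error is the log2 fold change divided by the square root of F. On simulated data with 13334 genes for this comparison, 55 of 99 changes of 1 and 87 of 99 changes of 2 (log2) were recovered, with 3 false calls. A far larger share of genes was called in the real comparison (21.6%), so the simulation does not give its rate of false calls. Alternatives were DESeq2 1.42.0, limma-voom 3.58.1, other scalings and filters, length and GC offsets and leaving out a null library. Transcript lengths came from GENCODE M21 (longest transcript), promoters from RefSeq, and lists were matched through RefSeq synonyms. Every member is named. Of each further list, up to 4 genes by smallest p and those its description needed were named. Members and lists were chosen with earlier results of these data known.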

Additional observations from a re-analysis of the deposited data

How the results depend on the processing

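The rise of the pathway genes kept its direction under every setting run, with a median log2 fold change of 0.78 to 0.92 when 1 null library was left out and 0.81 to 0.92 under the other settings. Of the 24 genes that rose, 21 were called by DESeq2, 23 by limma-voom, 23 after removal of the length and GC trend, 23 at a minimum mean of 5 CPM and 21 with at least 10 reads over the 3 libraries, a filter chosen after seeing the data. Ldha, Pdk3 and Pdk4 account for all the losses under these 5 settings. With no filter on low counts, where 17242 genes were tested and the prior degrees of freedom fell from 11.8 to 3.23, edgeR called 0 genes at all, against 23 pathway genes higher and 2 lower at an unadjusted p under 0.05 (2147 and 1966 of all genes), and the smallest adjusted p was 0.122. The further genes of glucose metabolism then also gave 0 in both directions, and Sox7 stood at -5.61 (edgeR adjusted p = 0.122). With DESeq2's size factors 1 pathway gene was lower, namely Pdhx. Over all genes, DESeq2 called 941 higher and 721 lower, against 1508 and 1366, and 795 were lower after removal of the length and GC trend. The further genes that fell numbered 1 with DESeq2, 2 after removal of the length and GC trend and 2 with at least 10 reads over the 3 libraries, against 4.

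Sign changes touched only genes that did not pass the test. Pdhb moved to 0.25 after removal of the length and GC trend. Gpd2 moved to 0.0064 with upper-quartile factors, 0.0096 with no filter, 0.00084 at a minimum mean of 5 CPM and 0.0036 with at least 10 reads over the 3 libraries, and Pgm1 to 0.0029 with no filter. Leaving out 1 null library gave the Pfkl share of the reads per kilobase of its step a difference of -1.02 to 2.03 percentage points, the Pdk4 share one of -0.68 to 2.80 and the Pfkfb4 share one of -3.98 to 0.26. In shares of reads not divided by length, the Pfkl difference was -2.03 to 0.94 and the Pdk4 difference -1.05 to 2.15. Leaving out 1 library left no residual degrees of freedom, so these are values with no test, and the wild-type library could not be left out. No paired analysis was possible because the replicate numbers in the labels are not shared between the groups. The scalings moved the median of all genes by under 0.1.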
